A study of Mus musculus with 12 samples.

Results

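The change of each gene between rest and 12 h of stimulation was compared between naive CD8 T cells of wild-type (WT) mice and of mice homozygous for the Ikaros-Zn4 mutation (Ikaros-Zn4-/-, here Zn4). The comparison uses 8 of the 12 libraries of the series, chosen by their labels: WT and Zn4 at 0 h and at 12 h, with 2 libraries in each of the 4 groups. The mice were on the C57Bl/6 background, were 6 weeks old, and every library is labelled female. Cells came from the spleen, were enriched by negative selection and sorted as CD8+ CD62Lhi CD44 lo/-. They were taken directly (0 h) or kept for 12 h on plates coated with antibodies to CD3 and CD28, so both genotypes at 12 h had the same stimulus. The labels say neither whether replicates are separate animals, nor whether animals were pooled, nor that the mutation was limited to T cells. P-values therefore measure only the spread between these libraries, which may be technical.

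Ikaros, encoded by Ikzf1, is a zinc finger DNA-binding protein of lymphocytes that can repress or activate the genes it binds. Its zinc fingers contact DNA at a GGGAA core, and the mutation is named for the fourth of them. In a naive CD8 T cell, engagement of CD3 and CD28 activates NFAT, AP-1 and NF-kappa B and switches on cytokine and chemokine genes. Interferon gamma, one of these cytokines, acts back on cells through its receptor and induces guanylate-binding proteins, immunity-related GTPases and the antigen-processing machinery.

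Positions are on GRCm38, the build that the submitters' processing notes name. The 250 bases before the annotated start were read for the 5 genes that mark this comparison, to show what lies in front of genes with a higher (Il3, Ccl1, Ifng, Cd247) and a lower response (Gbp2) in Zn4. The sequences are RefSeq's (GRCm38.p6), written 5′ to 3′ on the gene's strand, with GGGAA and GGAAA (a core bound by NFAT), or their reverse complements, in capitals. Overlapping matches merge into a single run of capitals.
Il3, chr11:54267280-54267529, minus strand: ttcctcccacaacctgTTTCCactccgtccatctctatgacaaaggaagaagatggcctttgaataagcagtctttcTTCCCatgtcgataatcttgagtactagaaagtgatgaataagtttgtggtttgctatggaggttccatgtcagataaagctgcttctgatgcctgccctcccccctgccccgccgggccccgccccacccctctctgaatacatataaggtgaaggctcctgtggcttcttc
Ccl1, chr11:82179813-82180062, minus strand: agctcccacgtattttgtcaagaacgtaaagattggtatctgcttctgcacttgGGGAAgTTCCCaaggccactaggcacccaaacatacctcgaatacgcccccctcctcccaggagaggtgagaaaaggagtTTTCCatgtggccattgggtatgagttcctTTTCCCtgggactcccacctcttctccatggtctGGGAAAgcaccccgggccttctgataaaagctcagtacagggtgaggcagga
Ifng, chr10:118440796-118441045, plus strand: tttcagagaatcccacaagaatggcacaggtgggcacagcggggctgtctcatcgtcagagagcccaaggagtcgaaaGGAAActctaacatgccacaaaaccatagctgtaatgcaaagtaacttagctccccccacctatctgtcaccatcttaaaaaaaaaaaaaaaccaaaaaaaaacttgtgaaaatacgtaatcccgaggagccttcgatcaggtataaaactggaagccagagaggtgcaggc
Cd247, chr1:165788431-165788680, plus strand: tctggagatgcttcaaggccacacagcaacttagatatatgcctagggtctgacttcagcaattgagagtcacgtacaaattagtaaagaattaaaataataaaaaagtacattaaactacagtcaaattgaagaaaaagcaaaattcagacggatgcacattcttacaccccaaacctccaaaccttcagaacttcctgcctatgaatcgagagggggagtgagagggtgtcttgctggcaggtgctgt
Gbp2, chr3:142620413-142620662, plus strand: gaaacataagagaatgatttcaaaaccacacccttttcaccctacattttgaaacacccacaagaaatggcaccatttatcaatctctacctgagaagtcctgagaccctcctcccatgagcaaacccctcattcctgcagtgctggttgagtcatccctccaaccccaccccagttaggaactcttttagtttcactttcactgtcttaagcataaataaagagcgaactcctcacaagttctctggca
In front of Ccl1 there were 4 matches to GGGAA and 3 to GGAAA, and in front of Il3 there was 1 of each. The Ifng window held 1 GGAAA and no GGGAA. The windows of Cd247 and Gbp2 held neither. Of all 27025 RefSeq promoter windows of that length, 55.9% held GGGAA and 55.6% held GGAAA on either strand. TGAGTCA, a site for AP-1, lay 102 bases before the start of Gbp2 and in 4.43% of all windows. TTCNNNGAA, the element bound by STAT dimers, matched in the Ifng window and in 7.18% of all windows. These matches describe letters in the windows and nothing about binding.

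Library totals worked out from the RPKM steps ran from 24263907 to 33389808 reads. At this depth 3 reads in a gene of 2 kb are 0.0449 to 0.0618 RPKM. Replicates correlated at r = 0.98 to 0.993 across genes within the 4 groups. All 12 CD8 T cell markers on the list were measured, and their summed level was 2759 to 3084 RPKM in WT and 2994 to 3056 in Zn4 at 0 h, and 3939 to 3956 and 3140 to 3313 at 12 h. Ikzf1 itself was read in every library and does not check the genotype, since a value per gene does not show the altered part (difference in response -0.46 ± 0.15, limma adjusted p = 0.12). Sex-linked transcripts went against the labels in 3 of the 12 h libraries. The sum of 4 Y-linked genes was 38.9 RPKM in WT 12 h replicate 1, 43.4 in Zn4 12 h replicate 1 and 21.0 in Zn4 12 h replicate 2, and at most 0.0209 in the others. Xist was 0.0023, 0.0258 and 24.3 RPKM in these 3 libraries and 27.2 to 82.7 in the rest. The main counts below are therefore also given with the summed Y-linked level as a covariate, and without the pair of 12 h libraries under 1 RPKM of Xist. The fit without those libraries was chosen after the data were seen. At 12 h it keeps replicate 2 of each genotype, with Y-linked sums of 0.00198 RPKM in WT and 21.0 in Zn4. Xist was 52.6 and 24.3 RPKM in them. Sex-linked levels thus still differ with genotype in that fit. Within groups the Y-linked level varied mostly in the WT 12 h pair (38.9 and 0.00198 RPKM), so the covariate rests mostly on that pair. At 12 h the covariate also differs with genotype. The part of sex in the results was not tested.

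The response differed between genotypes in 651 of 12726 tested genes (5.12%). The difference in response is the log2 change of Zn4 minus that of WT, on the log2(RPKM + 1) scale, and a gene was called at an adjusted p under 0.05 (limma, Benjamini-Hochberg). It was higher in Zn4 for 196 genes (1.54%) and lower for 455 (3.58%), and it reached at least 1 log2 unit in 339 (2.66%). Stimulation itself changed far more genes, 8928 (70.2%) in WT and 9296 (73%) in Zn4, where 43.5% rose and 29.6% fell. The genotypes differed in 728 genes (5.72%) at 0 h, 3.76% of all being higher and 1.96% lower in Zn4, and in 1671 (13.1%) at 12 h. In 49 of the 651 genes the responses were called in opposite directions, 41 of them rising in WT and falling in Zn4. On reads recovered from the RPKM steps, limma-voom called 551 genes, with 17.4% of them higher against 30.1% in the main fit.

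The count of called genes rested on single libraries. Leaving out each of the 8 libraries in turn gave 236 to 561 calls, the fewest, 236, lacking Zn4 12 h replicate 1; the fit lacking WT 12 h replicate 2 gave 252 and that lacking Zn4 0 h replicate 2 gave 399. In each of these 8 fits all 651 genes had the sign of the main fit, and 205 of them were called in every one. Called genes were selected for differences large beside their spread. Their kept signs were therefore likely beforehand and do not measure how firm the directions are. With the Y-linked covariate 318 genes were called, 309 of them among the 651. Without the 12 h libraries under 1 RPKM of Xist, which leaves 1 library per genotype at 12 h and assumes it to vary like the other groups, 141 were called and 127 were shared.

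Called genes were sorted by whether the genotypes already differed at rest. In 376 genes (57.8%) the difference lay in the response alone: no resting difference was called, its size was at most 0.5 log2, and the 12 h difference was called. In 133 genes (20.4%) a called resting difference was erased: at 12 h it was not called and was under 0.5 times its resting size. The resting difference was reversed in 24 genes, reduced in 32, widened in 15, and 71 genes were unsettled by these rules. The response-only genes were 129 with a higher and 247 with a lower response (medians 1.17 and -0.95). The erased genes were 32 and 101. No gene passed from response-only to erased, or the other way, under any alternative run. By the rules a gene would need to switch its calls at both 0 h and 12 h to do so. This therefore does not measure how stable the classes are.

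**Figure D1:**
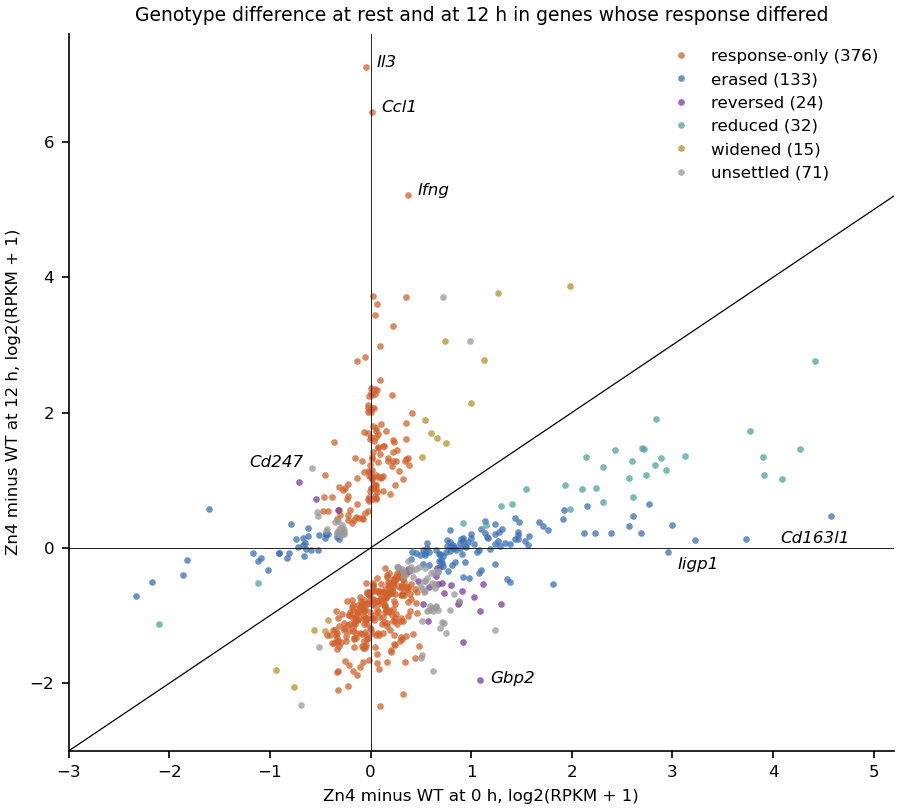
Genotype difference (Zn4 minus WT) at 0 h on the x axis against that at 12 h on the y axis, both on the log2(RPKM + 1) scale, for the 651 genes whose response differed, 1 point per gene coloured by class. Points on the diagonal would have the same difference at both times; response-only genes lie along the vertical axis, with Il3, Ccl1 and Ifng at its top, and erased genes along the horizontal axis, with Cd163l1 and Iigp1 at its right.

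The largest higher responses were those of secreted ligands. Il3, Ccl1, Ifng and Il2 rose steeply in Zn4 cells and little or far less in WT cells, from resting levels under 1 RPKM in both genotypes. Il3, a growth factor for haematopoietic progenitors and mast cells, was at 0 and 0.13 RPKM in the WT libraries at 0 h and 0.131 and 0.333 at 12 h, and at 0.0607 and 0 in Zn4 at 0 h and 135 and 212 at 12 h. Only the Zn4 libraries at 12 h were high, and WT cells did not show a called rise. The difference in response was 7.16 ± 0.28 (SE, adjusted p = 8.05e-06). Ccl1, a chemokine that attracts cells through CCR8, was at 0 RPKM in both WT libraries at 0 h and 0.695 and 0.24 at 12 h, and at 0 and 0.0156 in Zn4 at 0 h and 94.3 and 165 at 12 h. Again the Zn4 12 h libraries alone stood high, with a difference in response of 6.43 ± 0.59 (adjusted p = 0.000786).

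Ifng, which encodes interferon gamma, differed from Il3 in that WT cells also induced it. WT libraries went from 0.0971 and 0.102 RPKM to 13.4 and 9.7, and Zn4 libraries from 0.443 and 0.399 to 375 and 570. The groups at 12 h did not overlap, and Ifng was 40.9-fold higher in Zn4 there (difference in response 4.85 ± 0.28, adjusted p = 4.36e-05). Il2, the T cell growth factor, went from 0.0683 and 0 RPKM to 1.08 and 2.2 in WT and from 0.0334 and 0.0648 to 35.9 and 30.3 in Zn4. Its 12 h level was 20.2-fold higher in Zn4 (difference in response 3.70 ± 0.28, adjusted p = 0.000209). Lta, encoding lymphotoxin alpha, was the member with a substantial resting level: 10.6 and 8.13 RPKM in WT and 7.12 and 6.81 in Zn4. It reached 54 and 63.6 in WT and 176 and 176 in Zn4 at 12 h (1.94 ± 0.19, adjusted p = 0.00107).

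Across the cytokine list, 12 of 25 genes were tested, 5 had a higher response in Zn4 (1.54% of all genes did) and none a lower one, and the median difference was 0.48 beside -0.01 over all genes tested. By voom 2 were higher and 1 lower, and 1 was also lower with a pseudocount of 0.1, with either form of replicate block and without WT 12 h replicate 1. The fifth was Csf2 (1.78 ± 0.40, adjusted p = 0.0349), whose call was lost when any library other than WT 12 h replicate 2 was left out (adjusted p up to 0.105). Chemokines had 4 higher and none lower of 9 tested, with a median of 0.54. Besides Ccl1 these were Ccl3, an inflammatory chemokine (2.39 ± 0.54, adjusted p = 0.0358), Ccl9 (2.26 ± 0.51, 0.0377) and Xcl1, which attracts cross-presenting dendritic cells (1.23 ± 0.26, 0.0274). All 3 rose steeply in both genotypes; Xcl1 went from 1.19 and 0.782 to 3995 and 4436 RPKM in WT and from 1.17 and 0.78 to 9674 and 9962 in Zn4. The calls of Ccl3 and Ccl9 were lost when any library other than the WT 12 h pair was left out, and that of Xcl1 when any library other than WT 0 h replicate 2 and Zn4 0 h replicate 1 was (adjusted p up to 0.111). With the Y-linked covariate the lists had 5 and 3 higher members, and without the low-Xist 12 h libraries 4 and 3. The chemokine count was 1 to 3 when any single library was left out, 1 with a pseudocount of 0.1 (median -0.06) and 0 by voom (median -0.16). Both lists were chosen with earlier results of these data known and hold genes that mark this comparison (Il3, Ifng and Ccl1). The deposited values also cover only genes with a mean of at least 1.0005 RPKM in some group. A gene silent at rest in both genotypes and in stimulated WT cells could thus enter only through stimulated Zn4 cells. The counts and medians of both lists are not free of this selection and are descriptions.

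**Figure D2:**
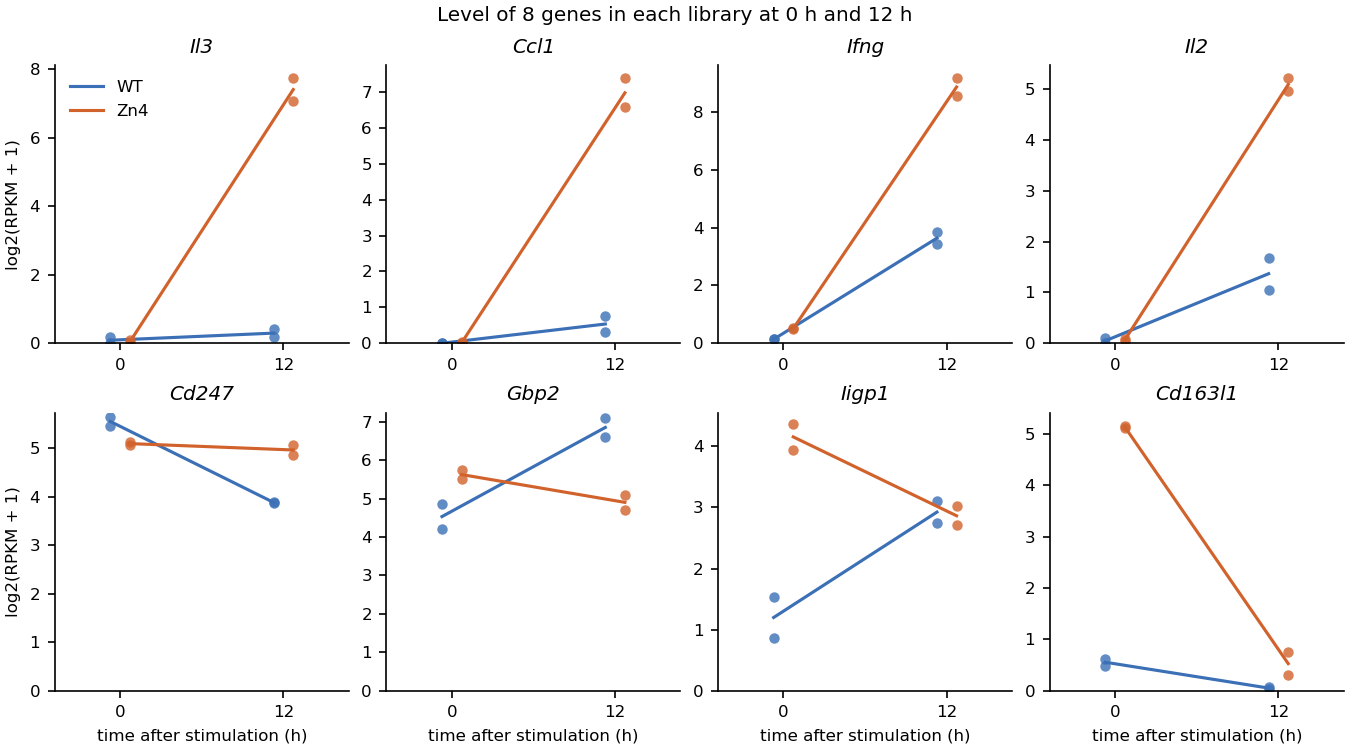
Level of 8 genes as log2(RPKM + 1) on the y axis at 0 h and 12 h on the x axis; each point is a library, set slightly apart by genotype, and lines join the means of 2 libraries (WT blue, Zn4 orange). Il3, Ccl1, Ifng and Il2 are high only or mainly in the Zn4 12 h libraries, Cd247 falls in WT and hardly in Zn4, Gbp2 rises in WT and falls in Zn4, and the resting differences of Iigp1 and Cd163l1 close by 12 h.

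Other response-only genes with a higher response included a transcription factor, a growth factor and a retinoid carrier. Hbegf, a ligand of the EGF receptor, stayed at 0.278 and 0.442 RPKM in WT at 12 h and reached 14.8 and 16.4 in Zn4, from 0.0494 to 0.125 in the 4 libraries at rest (3.54 ± 0.18, adjusted p = 2.45e-05). Zbtb32, a zinc finger repressor of activated lymphocytes, went from 0.182 and 0.26 to 18.4 and 11.7 in WT and from 0.259 and 0.252 to 160 and 178 in Zn4 (3.39 ± 0.30, adjusted p = 0.000642). Crabp2, which carries retinoic acid, reached 11.8 and 8.09 in WT and 104 and 104 in Zn4 (3.06 ± 0.25, adjusted p = 0.000406). The ion channel gene Trpm6 reached 0.127 and 0.0598 in WT and 12.4 and 14.1 in Zn4 (3.35 ± 0.17, adjusted p = 2.45e-05). None of the 12 h groups of these genes overlapped between genotypes. Such genes were named for large called differences, and each group has 2 libraries. A lack of overlap, here or in other passages, therefore only describes the values. The share of all genes without overlap was not counted.

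The label response-only has a limit for genes that are nearly silent at rest, because log2(RPKM + 1) compresses differences under 1 RPKM. Trpm6 had 1 read in the WT libraries at rest and 98 in the Zn4 libraries, and Ifng had 6 and 27. Of the 129 response-only genes with a higher response, 85 had at least 1 group mean under 1 RPKM. The voom fit, which works on ratios of reads, gave the same sign in 122 of the 129 and called 46. It called Il3 (adjusted p = 0.0153) and Hbegf (0.00572) but not Ccl1 (0.28), Ifng (0.115), Il2 (0.162), Zbtb32 (0.0632), Crabp2 (0.119) or Trpm6 (0.463).

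Among the higher response-only genes, 71 rose in both genotypes, 36 rose in Zn4 with no call in WT, 15 fell in WT with no call in Zn4, 5 fell in both, and 2 fell in WT and rose in Zn4. Bcl2l1, which encodes the survival protein BCL-XL, belonged to those rising in both. It went from 3.36 and 3 to 23.5 and 22.9 RPKM in WT and from 3.19 and 3.34 to 72.3 and 70.2 in Zn4 (1.55 ± 0.15, adjusted p = 0.000861). The resting libraries overlapped and the 12 h libraries did not. Havcr2, encoding the inhibitory receptor TIM-3, reached 0.439 and 0.242 in WT and 3.74 and 5.99 in Zn4 (2.13 ± 0.25, adjusted p = 0.00228). The gene beside Il3 on chromosome 11, Acsl6, an acyl-CoA synthetase, reached 0.0872 and 0.0755 in WT and 3.05 and 4.09 in Zn4 (2.06 ± 0.17, adjusted p = 0.000406). On the list of that locus 8 of 13 genes were tested. Il3, Acsl6 and Csf2 had a higher response (1.54% of all genes did), Pdlim4 and Irf1 a lower one (3.58%). The list median was -0.02. Il3 marks this comparison, Csf2 lost its call in most fits leaving out a library, and voom gave no difference for Pdlim4. No effect across the locus was tested.

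Cd247 encodes the zeta chain of the T cell receptor complex, the chain with the most signalling motifs. WT libraries fell from 43.1 and 48.9 to 13.9 and 13.6 RPKM, and Zn4 libraries went from 32.3 and 34.1 to 27.9 and 32.7. At rest WT was the higher genotype, at 12 h Zn4, and neither pair overlapped. The fall in WT was called (-1.67 log2) and the change in Zn4 was not (-0.13), and the difference in response was 1.54 ± 0.21 (adjusted p = 0.00477). The resting difference was not called (-0.46, adjusted p = 0.133) and the 12 h difference was (1.08, 0.00162). Cd247 was called in all 8 fits that left out a library and with the Y-linked covariate (adjusted p = 0.0197), but not without the low-Xist 12 h libraries (0.0524).

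Among the other genes of the T cell receptor and its proximal signalling, called differences were mostly in the other direction. Of 46 tested genes on the list, 15 had a lower response in Zn4, 2 a higher one, and 29 did not pass. Over all genes 3.58% were lower and 1.54% higher. The list median was -0.36. The list was chosen with earlier results of these data known and holds Cd247, which marks this comparison, so these counts are descriptions. Cd3d, a CD3 chain that assembles with the zeta chain, went from 219 and 216 to 190 and 196 RPKM in WT and from 268 and 279 to 111 and 127 in Zn4 (-1.02 ± 0.15, adjusted p = 0.00637). Cd3g, another CD3 chain, was at 215 and 217 and then 232 and 218 in WT, and at 199 and 219 and then 104 and 110 in Zn4 (-1.02 ± 0.21, adjusted p = 0.0239). For both, the Zn4 12 h libraries were the low ones, the fall in Zn4 was called and no change in WT was. Nfatc2, an NFAT factor, rose in WT and fell in Zn4 (-1.04 ± 0.20, adjusted p = 0.0199), and Cd28, the costimulatory receptor engaged here, fell from 141 and 103 to 35.6 and 34.1 RPKM in Zn4 with no called change in WT (-1.37 ± 0.33, adjusted p = 0.0464).

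The other called genes named from this list were Dgka, a kinase that removes diacylglycerol (-1.15 ± 0.24), and Lcp2, the adaptor SLP-76 (-1.05 ± 0.25). The second gene with a higher response was Trat1, an adaptor whose lower resting level in Zn4 was erased (0.87 ± 0.17, adjusted p = 0.0196). Cd8a (-0.36, adjusted p = 0.333) and Cd3e (-0.56, 0.102; named for its place in the CD3 complex, after its value was seen) were not called. The count of 15 was 2 when WT 12 h replicate 2 or Zn4 12 h replicate 1 was left out, and also with the Y-linked covariate. Leaving out WT 12 h replicate 1 gave 3, Zn4 0 h replicate 2 gave 6, Zn4 0 h replicate 1 or Zn4 12 h replicate 2 gave 7, and WT 0 h replicate 1 gave 9. Without both low-Xist 12 h libraries it was 0, while the median over the list was still -0.36. Of the lower genes named here, Cd3d was called in every fit leaving out 1 library, whereas Nfatc2, Cd28, Dgka, Cd3g and Lcp2 lost their call in 4 to 7 of the 8 (adjusted p up to 0.17).

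**Figure D3:**
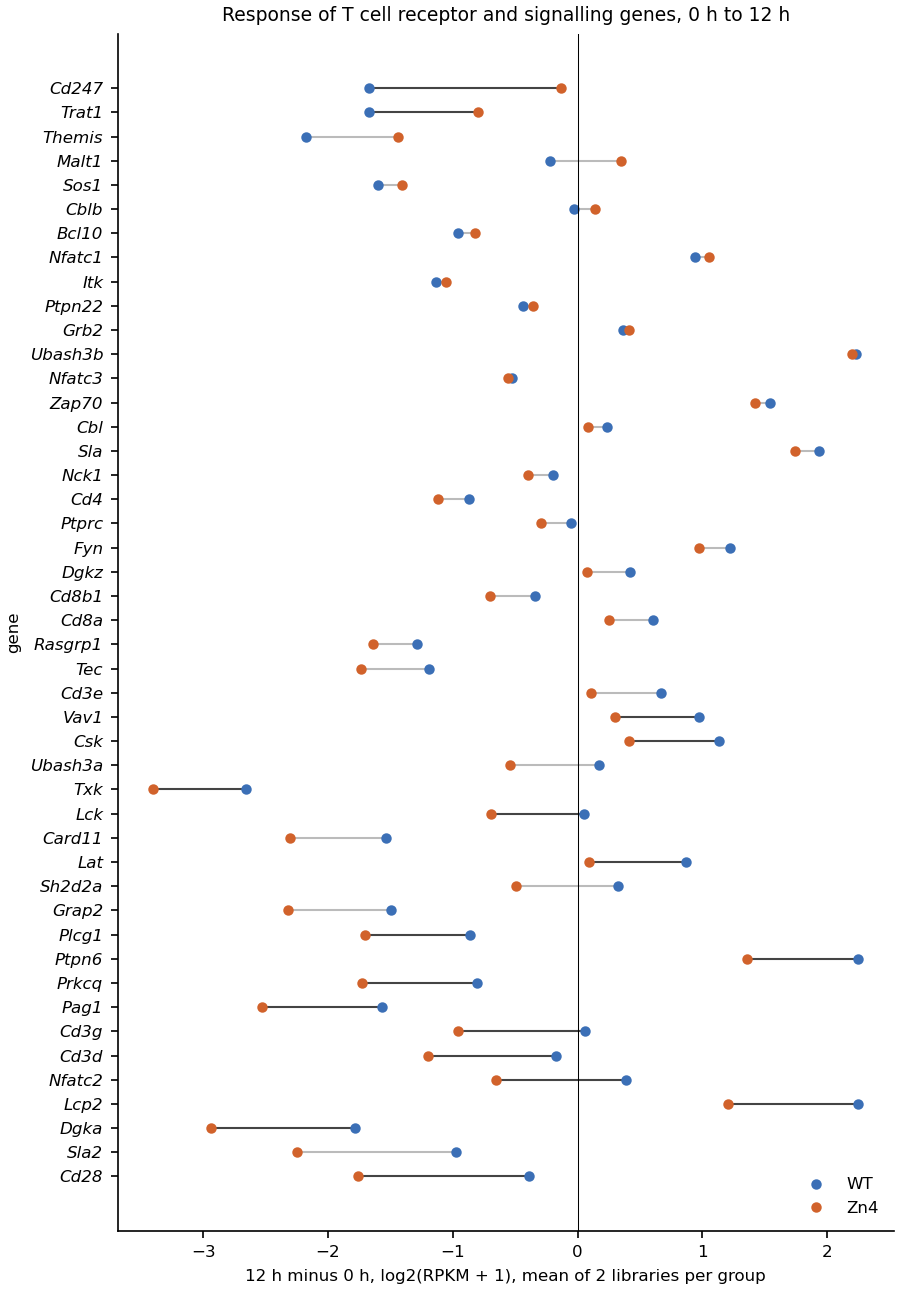
Change from 0 h to 12 h (x axis, log2(RPKM + 1), means of 2 libraries) in WT (blue) and Zn4 (orange) for the 46 tested genes of T cell receptor chains and proximal signalling, ordered by the difference in response; dark lines join genes whose difference was called. Cd247 stands apart at the top with its fall in WT, and the 15 genes with a lower response in Zn4 lie in the lower part, where the orange point is left of the blue one.

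Interferon gamma-induced genes had a lower response in Zn4 cells although Ifng itself was higher there. Of 28 tested genes on the list, 22 had a lower response and none a higher one, all 28 had a negative sign, and the median was -1.49 beside -0.01 over all genes. The background share with a lower response was 3.58%. The list was chosen with earlier results of these data known and holds Gbp2, which marks this comparison. These counts are therefore descriptions. Summed over the list, WT libraries held 769 and 877 RPKM at 0 h and 758 and 884 at 12 h, and Zn4 libraries held 1148 and 1179 at 0 h and 352 and 433 at 12 h. The Zn4 libraries were thus the highest at rest and the lowest after stimulation, with no overlap with WT at either time. In bulk samples, fewer cells of a type and less RNA per cell cannot be told apart.

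In WT cells 6 of the 28 genes rose and 10 fell, and in Zn4 cells 2 rose and 24 fell. Over all genes 43.1% rose and 27% fell in WT, and 43.5% rose and 29.6% fell in Zn4. The resting difference was called higher in 6 (background 3.76%), and the 12 h difference was called lower in 21 (background 8.28%) and higher in 1. By class, 11 were response-only, 3 reversed, 1 erased and 7 unsettled. The count of 22 was 15 to 22 when a library was left out; it was 15 without WT 12 h replicate 2. It was 17 with the Y-linked covariate and 8 without the low-Xist 12 h libraries, where all 28 signs were still negative and the median was -1.55. How reads that match several genes were counted is not given in the sources used here, so values of close copies such as the Gbp genes, Tgtp1 and Tgtp2 are uncertain.

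Gbp2, a guanylate-binding GTPase that attacks the vacuoles of intracellular pathogens, had the largest difference on the list. WT libraries rose from 17.6 and 27.8 to 97 and 135 RPKM, and Zn4 libraries fell from 44.3 and 52.8 to 25 and 33.4. Zn4 was above WT at rest and below it at 12 h, and neither pair overlapped. Gbp2 was therefore a reversed gene: the resting difference was 1.09 (adjusted p = 0.0334), the 12 h difference -1.95 (0.000972), and the difference in response -3.04 ± 0.35 (0.00228). It stayed under 0.05 without the low-Xist 12 h libraries (0.0277) and with the Y-linked covariate (0.0087).

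Irgm1, an immunity-related GTPase, also moved in opposite directions. It rose from 10.8 and 9.53 to 22 and 22.1 RPKM in WT and fell from 17 and 12.4 to 6.46 and 8.45 in Zn4 (-1.93 ± 0.30, adjusted p = 0.00734). Gbp4 changed without a call in WT, from 39.8 and 44.5 to 30.5 and 37.4, and fell in Zn4 from 60.1 and 54.8 to 8.82 and 12 (-2.06 ± 0.32, adjusted p = 0.00774). Irf1, a transcription factor that interferon gamma induces, fell in both genotypes but further in Zn4, from 132 and 102 to 16.4 and 19.5 against 109 and 90 to 45.2 and 45.3 in WT (-1.52 ± 0.19, adjusted p = 0.00323). Without the low-Xist 12 h libraries the adjusted p was 0.108 for Irgm1, 0.0771 for Gbp4 and 0.0617 for Irf1.

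Iigp1, another immunity-related GTPase, reached its difference by a different path. Its level was 0.813 and 1.91 RPKM in WT at rest and 14.3 and 19.7 in Zn4, and at 12 h it was 5.71 and 7.58 in WT and 5.54 and 7.1 in Zn4. The resting libraries were far apart and the 12 h libraries overlapped: the ratio of Zn4 to WT went from 12.5 to 0.951. This was an erased gene, by a rise in WT and a fall in Zn4 (-3.01 ± 0.42, adjusted p = 0.00481; 0.064 without the low-Xist libraries).

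**Figure D4:**
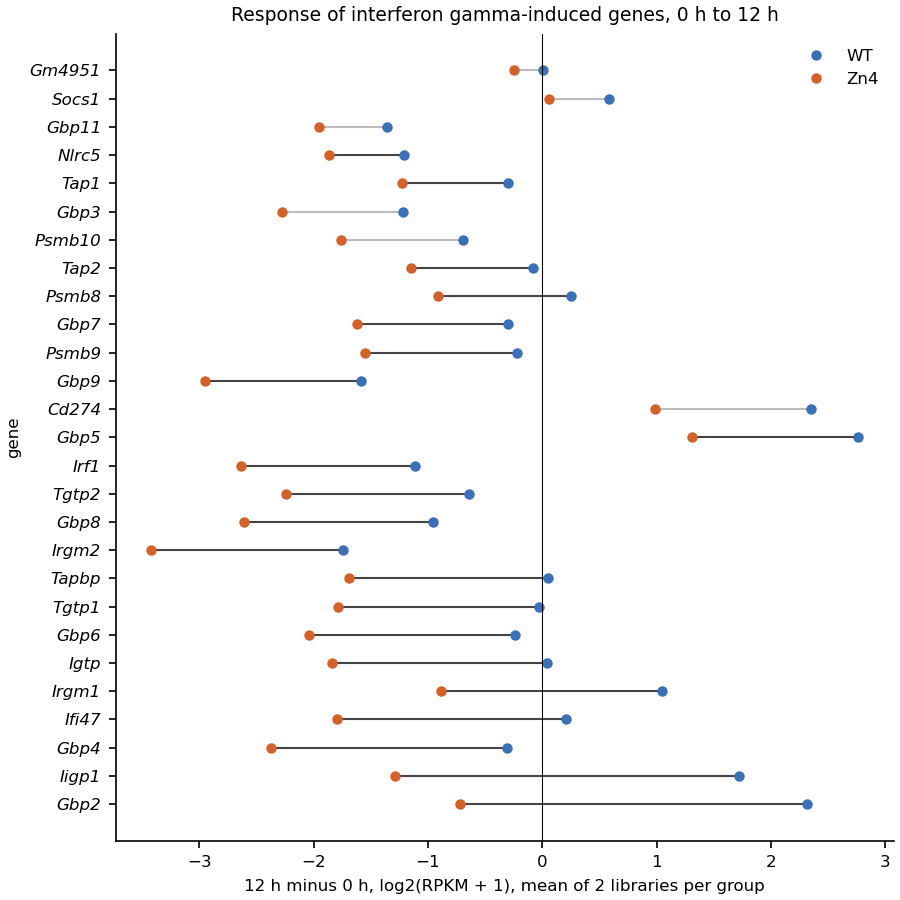
Change from 0 h to 12 h (x axis, log2(RPKM + 1), means of 2 libraries) in WT (blue) and Zn4 (orange) for 27 of the 28 tested interferon gamma-induced genes, ordered by the difference in response; dark lines join the 21 of them whose difference was called. The orange point lies left of the blue one in all 27, and for Gbp2, Iigp1 and Irgm1 the points lie on opposite sides of 0.

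Of 29 tested type I interferon-stimulated genes, 4 had a lower and 2 a higher response (3.58% and 1.54% of all genes), 25 signs were negative, and the median was -0.46. With the Y-linked covariate 1 was lower and 1 higher, and without the low-Xist 12 h libraries 1 was lower and 0 were higher. Leaving out Zn4 12 h replicate 1 gave 0 lower genes, and leaving out Zn4 0 h replicate 2 gave 10. One of the higher ones was Ifih1, which encodes the RNA sensor MDA5. It fell from 2.72 and 2.39 to 0.766 and 0.943 RPKM in WT and rose from 5.8 and 4.06 to 25.1 and 21.2 in Zn4 (2.98 ± 0.35, adjusted p = 0.00228; 0.0524 without the low-Xist 12 h libraries). Its difference ran opposite to that of Parp14, an ADP-ribosyltransferase of the interferon response that fell in both genotypes and further in Zn4 (-1.50 ± 0.25, adjusted p = 0.0106; 0.0523 without Zn4 12 h replicate 1).

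Response-only genes with a lower response were mostly expressed at all points: 221 of 247 had all 4 group means at or above 1 RPKM, and the voom fit called 229. In 125 the level fell in both genotypes, in 58 it fell in Zn4 with no call in WT, in 23 it rose in WT with no call in Zn4, in 22 it rose in both, and in 19 it rose in WT and fell in Zn4. Cd52, a small glycoprotein of the lymphocyte surface, was of the last kind, going from 116 and 99 to 192 and 274 RPKM in WT and from 138 and 131 to 47.9 and 53.5 in Zn4 (-2.48 ± 0.29, adjusted p = 0.00228). Cotl1, an actin-binding protein, went from 204 and 175 to 321 and 356 in WT and from 199 and 205 to 60.2 and 73.2 in Zn4 (-2.43 ± 0.23, adjusted p = 0.000914). In both genes the resting levels of the genotypes lay close together and the 12 h levels were several-fold apart, with Zn4 low.

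Cnn2, a calponin that binds actin, and Samhd1, which degrades deoxynucleotides, kept their level in WT and lost it in Zn4. Cnn2 was at 95.9 and 83.8 and then 102 and 107 RPKM in WT, and at 76.3 and 77.2 and then 21.4 and 28.3 in Zn4 (-1.83 ± 0.20, adjusted p = 0.0018). Samhd1 was at 25.4 and 33.1 and then 28.2 and 29.2 in WT, and at 23.5 and 22.4 and then 5.33 and 6.57 in Zn4 (-1.77 ± 0.21, adjusted p = 0.00238). Neither WT change was called, and both Zn4 falls were. Klrd1, which encodes the receptor chain CD94, had the same shape at a lower amplitude: 49.7 and 47 then 45.8 and 47.8 in WT, and 42.2 and 40.9 then 20.1 and 18.7 in Zn4 (-1.01 ± 0.11, adjusted p = 0.0018).

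Genes that fell in both genotypes and further in Zn4 included Nt5e, the ecto-nucleotidase CD73, which went from 10.1 and 7.78 to 4.87 and 4.09 RPKM in WT and from 9.47 and 9.53 to 0.499 and 0.669 in Zn4 (-1.88 ± 0.23, adjusted p = 0.00238). Gimap4, a GTPase of lymphocyte survival, fell from 233 and 236 to 114 and 120 in WT and from 282 and 246 to 31.5 and 40 in Zn4 (-1.86 ± 0.26, adjusted p = 0.00481). Cd2, an adhesion receptor of T cells, fell from 174 and 161 to 60.5 and 48.6 in WT and from 183 and 180 to 22.8 and 25.8 in Zn4 (-1.25 ± 0.16, adjusted p = 0.00323). Without the low-Xist 12 h libraries Nt5e and Gimap4 lost their call, whereas Cd52, Cotl1, Cnn2, Samhd1, Klrd1 and Cd2 kept theirs. That fit has 1 library per genotype at 12 h, and these differ in Y-linked level (0.00198 RPKM in WT, 21.0 in Zn4).

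Erasure of a resting difference covered 2 kinds of gene that the log scale does not separate. Of the 101 erased genes with a lower response, which by the rule were higher in Zn4 at rest, 45 had all 4 group means at or above 1 RPKM and 40 had both 12 h means under 1 RPKM. The voom fit called 35 of these 45 and 9 of these 40. In the second kind both genotypes fell towards silence, so the difference in RPKM vanished while the ratio need not have. Of the 32 erased genes with a higher response, 19 had all 4 means at or above 1 RPKM and 11 had both 12 h means under it.

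Cd163l1, a scavenger receptor gene known as a marker of gamma-delta T cells, showed the largest erasure. It was at 0.543 and 0.402 RPKM in WT and 33.6 and 34.6 in Zn4 at rest, and at 0.0238 and 0.052 in WT and 0.237 and 0.684 in Zn4 at 12 h (-4.10 ± 0.21, adjusted p = 2.45e-05). Both Zn4 resting libraries were high and every other library was under 1 RPKM. The ratio of Zn4 to WT was 72.1 at rest and still 12.1 at 12 h, from 8 WT and 88 Zn4 reads, and voom did not call the gene (adjusted p = 0.0736). Of the 15 natural killer and gamma-delta T cell markers only Cd163l1, Tcrg-C1 and Tcrg-C4 were tested, and the list summed to 2.96 to 3.03 RPKM in WT and 35.4 to 37.1 in Zn4 at rest, nearly all of the latter from Cd163l1. The part of such cells in the result was not tested.

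Olfr524, an olfactory receptor gene, and Pyroxd2, an oxidoreductase gene, followed the same course. Olfr524 went from 12.8 and 16.4 to 0.168 and 0.0343 RPKM in Zn4 and from 0.111 and 0.232 to 0 and 0 in WT (-3.59 ± 0.20, adjusted p = 4.36e-05). Pyroxd2 went from 17.7 and 19.8 to 0.137 and 0.279 in Zn4 and from 1.29 and 0.957 to 0.119 and 0.106 in WT (-3.10 ± 0.19, adjusted p = 6.13e-05). Here the ratio itself narrowed, from 16.7 to 1.85. For Epas1, which encodes the hypoxia factor HIF-2 alpha, it went from 10.5 to 5.52 as Zn4 fell from 12.9 and 15.1 to 0.174 and 0.246 (-2.47 ± 0.19, adjusted p = 0.000207), and voom did not call Epas1 (0.353). Prdm1, the effector regulator Blimp-1, and Oas1a, an antiviral synthetase, were sorted as erased although their ratios did not narrow (4.94 to 6.41 and 3.95 to 5.69, from 6 and 5 WT reads at 12 h). The calls of both were lost in 6 of the 8 fits that left out a library (adjusted p up to 0.14).

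Some resting differences closed by induction in WT, from resting WT levels near or under 1 RPKM. Tbx21, encoding T-bet, the T helper 1 and effector regulator, was at 1.07 and 0.296 RPKM in WT and 7.58 and 2.83 in Zn4 at rest, and at 12.9 and 9.65 in WT and 6.13 and 8.86 in Zn4 at 12 h. The resting groups did not overlap, nor did those at 12 h, where Zn4 was the lower (-2.34 ± 0.52, adjusted p = 0.0338; 12 h difference -0.54, not called). Its call was lost when any library other than WT 0 h replicate 1 and Zn4 0 h replicate 2 was left out (adjusted p up to 0.14). Spry1, a feedback inhibitor of ERK signalling, went from 0.766 and 0.436 to 98.7 and 119 in WT and from 1.76 and 2.28 to 119 and 114 in Zn4, so that a resting ratio of 3.36 became 1.07. The difference in response was -0.82 ± 0.19 (adjusted p = 0.0381, up to 0.149 without any of WT 0 h replicate 2, WT 12 h replicate 2, Zn4 0 h replicate 2 and the Zn4 12 h pair).

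Other erased genes closed by falling. Crlf3, a cytokine receptor-like gene that was lower in Zn4 at rest, went from 56.3 and 80.5 to 16.3 and 19.1 RPKM in WT and from 15.2 and 20.7 to 12.8 and 13.4 in Zn4. The WT excess shrank from 3.82-fold to 1.35-fold (1.47 ± 0.25, adjusted p = 0.0117; 0.134 without the low-Xist 12 h libraries). Igfbp4, which binds insulin-like growth factors and is abundant in naive T cells, went from 34 and 29.1 to 3.91 and 3.16 in WT and from 78.2 and 86.1 to 1.81 and 2.84 in Zn4 (-1.81 ± 0.31, adjusted p = 0.0121; 0.0553 without Zn4 12 h replicate 1). H2-Ob, a class II chaperone chain of B cells, was at 12.2 and 16.4 in WT and 2.18 and 2.55 in Zn4 at rest. It fell under 1 RPKM in every 12 h library (1.67 ± 0.26, adjusted p = 0.00801), but the WT excess was 6.05-fold at rest and 7.03-fold at 12 h, and voom gave 0.13 (adjusted p = 0.96).

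In 30 of the 32 reduced genes Zn4 was the higher genotype at rest. Nrp1, a semaphorin and VEGF coreceptor, was at 0.245 and 0.221 RPKM in WT and 15.6 and 19.7 in Zn4 at rest, and rose to 16.4 and 19.3 and to 35.5 and 41.7. The resting ratio of 75.8 shrank to 2.16 because WT cells induced the gene (-2.84 ± 0.26, adjusted p = 0.000786). Spry2, a relative of Spry1, went from 0.393 and 0.274 to 27 and 27.5 in WT and from 9.01 and 9.35 to 69.6 and 55.2 in Zn4 (-1.78 ± 0.15, adjusted p = 0.000488), and its ratio from 27.5 to 2.29. Gzmm, a granzyme gene, shrank by loss: Zn4 fell from 36.8 and 18.3 to 2.63 and 3.36 while WT stayed between 0.528 and 1.02 (-3.08 ± 0.37, adjusted p = 0.00243; 0.0538 without the low-Xist 12 h libraries). Pdlim4, a PDZ-LIM gene of the Il3 neighbourhood, was called reduced (-2.56 ± 0.29, adjusted p = 0.00219), yet its ratio was 39.9 at rest and 44.5 at 12 h, and voom gave no difference (0.0).

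Cd74, the class II invariant chain, was also reduced, from 40.9 and 22 to 14.6 and 12.1 RPKM in Zn4, while it rose from 0.803 and 1.88 to 3.82 and 2.89 in WT (-2.04 ± 0.40, adjusted p = 0.022). Its call was lost without any of WT 0 h replicate 1, the WT 12 h pair and the Zn4 12 h pair (adjusted p up to 0.0715). The B cell and class II list summed to 27.5 to 27.8 RPKM in WT and 54.4 to 77.2 in Zn4 at rest and to 9.97 to 11.0 and 17.1 to 17.4 at 12 h. Of its 15 genes 4 were tested, and the B cell genes Cd79a, Ms4a1 and Pax5 were not among them. On the myeloid list 4 of 17 were tested, with sums of 20.2 to 21.4 in WT and 29.1 to 41.6 in Zn4 at rest and 25.9 to 27.6 and 21.6 to 27.4 at 12 h. The part of these cells in the results was not tested.

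In 10 of the 15 widened genes Zn4 was the higher genotype at both times, and the voom fit called 3 of these 10. Axl, a receptor tyrosine kinase, went from 0.466 and 0.284 to 1.55 and 2.15 RPKM in WT and from 2.52 and 2.09 to 35.4 and 40 in Zn4 (2.50 ± 0.18, adjusted p = 0.000207), so its ratio went from 6.15 to 20.4. Itgb1, the beta-1 integrin chain, went from 11 and 11.6 to 22.9 and 23.8 in WT and from 15.9 and 17.3 to 60.7 and 60.6 in Zn4 (0.83 ± 0.10, adjusted p = 0.00288; 0.0679 without the low-Xist 12 h libraries). Lgals7, a galectin gene, and Myo1e, an unconventional myosin gene, were called (1.89 ± 0.30 and 1.65 ± 0.22), but their ratios did not widen, at 24.0 and 25.1 and at 16.4 and 10.4. In the other direction Neurl3, a ubiquitin ligase gene, fell from 141 and 131 to 20.9 and 20.2 in WT and from 75.9 and 84.3 to 3.86 and 4.5 in Zn4 (-1.29 ± 0.14, adjusted p = 0.00164).

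Reversed genes other than Gbp2 included Kbtbd11, a BTB-kelch gene, at 12.3 and 14.4 and then 12.6 and 14.3 RPKM in WT and at 30.1 and 38.7 and then 6.17 and 8.31 in Zn4 (-2.12 ± 0.21, adjusted p = 0.00128). Timp2, a metalloproteinase inhibitor, fell from 24.7 and 25 to 3.95 and 4.24 in Zn4 with no called change in WT (-2.02 ± 0.32, adjusted p = 0.00821; 0.0974 without the low-Xist 12 h libraries). Egr1, an immediate early transcription factor, rose in WT from 11.9 and 14.1 to 37.6 and 51.7 and was at 19.6 and 31 and then 24.1 and 25.9 in Zn4 (-1.68 ± 0.30, adjusted p = 0.0153; up to 0.0681 without WT 12 h replicate 2 or Zn4 12 h replicate 1). The 3 reversed genes with a higher response were Dnajb5, a chaperone gene (1.68 ± 0.22), Mfhas1 (1.28 ± 0.16) and Serp1, a protein of the endoplasmic reticulum (0.89 ± 0.11). Their adjusted p-values were 0.00383, 0.00329 and 0.00288.

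In the gene groups of this paragraph most tested members were not called. Those called were mostly lower, as were 455 of the 651 called genes (3.58% of all genes). In other lists too few genes were called to read a direction: STAT5 feedback and survival had 3 higher and 1 lower of 22 tested. Inhibitory receptors had 2 higher and 1 lower of 12, and the TNF superfamily 1 of each of 21 (1.54% of all genes were higher). Counts under the alternatives are not given for these lists. Of 34 tested early activation and AP-1 genes 5 had a lower response and none a higher one (median -0.28). Of 29 naive-state genes 4 were lower and none higher (median -0.38), of 29 effector and memory transcription factors 4 lower and 1 higher (-0.18), and of 20 glycolysis genes 4 lower and none higher, with all 20 signs negative (-0.44). Over the alternatives 17 to 20 of the glycolysis signs were negative, with 17 when WT 12 h replicate 1 was left out. Without Zn4 12 h replicate 1 these 4 counts of lower genes were 1, 0, 0 and 0, with the Y-linked covariate 3, 2, 0 and 1, and without the low-Xist 12 h libraries 1, 1, 0 and 0. A lower response was not always a lower level at 12 h. Of the early activation and AP-1 genes 11 were called higher in Zn4 at rest and 7 at 12 h, with none and 3 lower. For effector and memory factors these counts were 8 and 6 higher, with none and 3 lower. At 12 h 7 naive-state and 6 glycolysis genes were lower, with 1 higher in each list. Over all genes 3.76% were higher at rest, and 4.85% were higher and 8.28% lower at 12 h. Myc (-0.38 ± 0.43), Il2ra, the IL-2 receptor alpha chain (0.29 ± 0.24), Cd69 (-0.73 ± 0.20), Eomes (0.27 ± 0.50) and Gzmb, encoding granzyme B (1.75 ± 0.51), were not called, with adjusted p-values of 0.728, 0.601, 0.075, 0.852 and 0.0906. The Ikaros relatives Ikzf2 (-0.80 ± 0.39) and Ikzf3 (-0.57 ± 0.24) were not called either (0.322 and 0.244). No member of the ribosome biogenesis list (30 tested, median 0.17), the cell division list (28, 0.03) or the cytokine receptor list (23, -0.28) was called by limma in the fit to all 12 libraries. At an unadjusted p under 0.05 the counts were 5, 1 and 6, and voom also called none in any of the 3 lists. Other limma fits called a few: 2 cytokine receptor genes were lower in the fit to the 8 libraries, and 1 cell division gene was lower without WT 12 h replicate 1. With a replicate block, and also without Zn4 0 h replicate 1, 1 cytokine receptor gene was higher, and with a block within each time 2 were higher and 3 lower, beside 2 higher ribosome biogenesis genes and 1 higher cell division gene.

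The 24 h libraries share no library with the 0 h and 12 h groups, and they show where the classes stood later. They entered the same fit, whose estimate of spread also sorted the classes. The 24 h calls are therefore not independent of the classes. Response-only genes were also selected for a called 12 h difference, so the shares of all genes given beside them do not measure persistence. The share among all genes called at 12 h was not counted. Of the 129 response-only genes with a higher response, 111 were called higher in Zn4 at 24 h (86.0%, against 9.4% of all genes), and of the 247 with a lower response 187 were called lower (75.7%, against 9.96%). Over the alternatives that kept the 24 h libraries, these shares were 71.4% to 92.0% and 68.3% to 85.9%. Il3 was still 7.05 log2 higher in Zn4 at 24 h (adjusted p = 3.8e-07), Ifng 3.67 (1.01e-05), Ccl1 3.35 (0.000708) and Cd247 1.34 (0.000408). Gbp2 was lower in Zn4 at 24 h, with a difference of -1.56 (0.00249). For Xcl1 the 24 h difference of 0.27 was not called (0.352).

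Erased differences were called again at 24 h in 40 of 133 genes (30.1%, against 19.4% of all genes), 32 of them with the sign they had at rest. Iigp1 (0.14, adjusted p = 0.792) and Tbx21 (-0.15, 0.824) were not called at 24 h. Of the 30 reduced genes with a lower response, 29 were called higher in Zn4 at 24 h. All 15 widened genes were called at 24 h in the direction they had at 12 h. Reversed genes with a lower response were called lower at 24 h in 8 of 21 cases and higher in none.

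**Figure D5:**
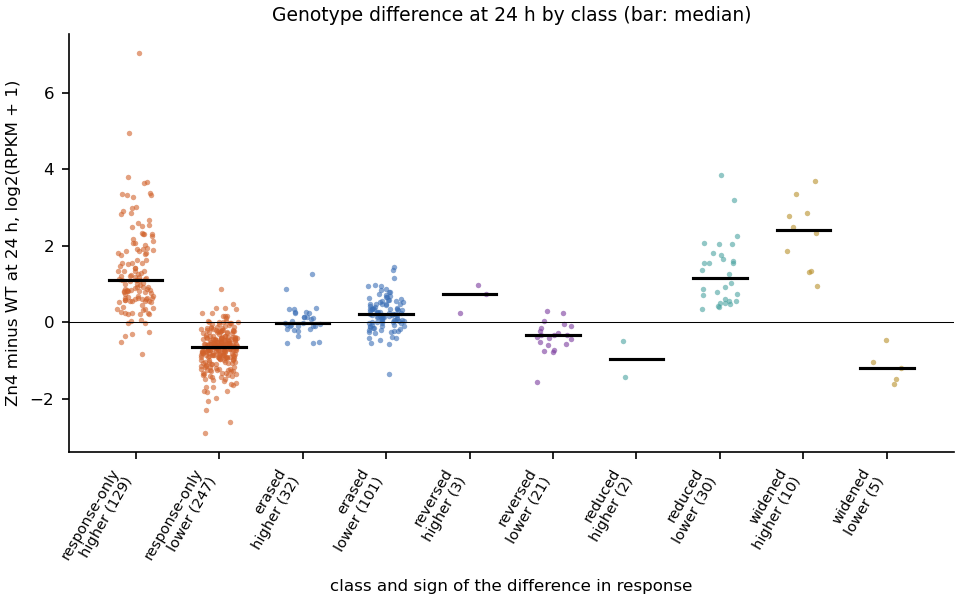
Genotype difference at 24 h (y axis, Zn4 minus WT, log2(RPKM + 1)) for the genes of each class and sign of the difference in response (x axis, number of genes in brackets); points are genes, spread sideways for legibility, and bars are medians. The medians are 1.11 and -0.66 for response-only genes with a higher and a lower response, and -0.02 and 0.22 for erased genes.

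The sequence windows of the classes can be set beside the 5 printed above. Windows were matched for 95 of the 129 response-only genes with a higher response, and 64.2% held GGGAA and 48.4% GGAAA. For 185 of the 247 with a lower response these shares were 55.7% and 59.5%, for 91 of the 133 erased genes 58.2% and 51.6%, and for 8082 of the 12726 tested genes 58.2% and 54.6%. TTCNNNGAA was in 11.6%, 7.03%, 5.49% and 6.11% of the windows, in the same order. These shares are descriptions, and no test was made of them.

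The thresholds cut through a continuous range. Just inside the adjusted p of 0.05 lay Gltp (-0.62) and Tbc1d22b (-0.55), both at 0.0499, and just outside lay Cnp (-1.08, 0.0502) and Nsg2 (-1.11, 0.0507). Irgm1, with a resting difference of 0.48, was just inside the limit of 0.5 for response-only genes, and Tgtp2 (0.51) and Rassf2 (-0.51) were just outside it.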

How the data were processed

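Stranded single-end mRNA libraries were made by the submitters with a TruSeq kit for Illumina sequencing, per the labels' protocols. The authors deposited RPKM values per gene. TopHat2 2.0.12, HTSeq 0.6.1 and the genome mm10 (GRCm38) are named, per the submitters' processing notes; the strand setting and the treatment of reads matching several genes are not given in the sources used here. The table has 12892 lines and 12885 symbols (of 7 repeated symbols the earlier line was used). Every gene reaches a mean of 1.0005 RPKM or more in some group.

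From these values, log2(RPKM + 1) was fitted with limma 3.58.1 (R 4.3.3; a mean per group, empirical Bayes with trend) for the 12726 genes that reached 1 RPKM in 2 or more libraries. All 12 libraries entered the fit to share the estimate of spread (6 residual degrees of freedom), and p-values were adjusted by Benjamini-Hochberg within each comparison. Errors are standard errors of the fit. Values within a library were whole multiples of a step, so whole reads were recovered for 100% of genes (tolerance 0.02 reads) and used in a limma-voom fit as an alternative. No scaling was added; the median difference in response over all genes was -0.01, 0.01 under median-ratio scaling and 0.03 under quantile normalization, while the median change from 0 h to 12 h was 0.2 in WT and 0.19 in Zn4 (-0.02 in each under median-ratio scaling).

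Genes were named by rule: the 5 genes that mark the comparison, up to 8 called genes with the largest difference in each class and sign that reached 5 RPKM in a group, up to 5 called genes per list, and 13 genes chosen for their role. Exceptions are marked. The members, the 24 gene lists and the rules were chosen with earlier results of these data known. Counts within lists, set beside the share of all genes, are therefore descriptions. The fit was also run on simulated data with independent noise in each library. Those data held neither the shared deviations of same-numbered libraries nor the sex-linked differences seen here. That run therefore does not measure the errors of the fit on these data. The result was recomputed without a filter, with a filter at 5 RPKM, a pseudocount of 0.1, median-ratio scaling, quantile normalization, robust empirical Bayes, only the 8 libraries, a replicate block, resting bounds of 0.25 and 1 log2, limits of 0.1 on the adjusted p, limma-voom on the recovered reads, the Y-linked covariate, and each library left out in turn. A replicate block within each time and the fit without the 12 h libraries under 1 RPKM of Xist were added after the data were seen. Groups came from the labels of each sample, and library totals, worked out from the RPKM steps, were 24263907 to 33389808 reads. A few genes are not reported here by name.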

Additional observations from a re-analysis of the deposited data

Results flagged for a closer look

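The 2 genotypes responded differently in 651 genes by the test of that difference (limma, adjusted p under 0.05), and some named genes were called in opposite directions. Gbp2 (-3.04), Iigp1 (-3.01), Cd52 (-2.48), Cotl1 (-2.43), Gm12250 (-2.3), Gm22748 (-2.24), Cd74 (-2.04), Irgm1 (-1.93), Slc43a1 (-1.86), Myo10 (-1.76) and Nfatc2 (-1.04) rose in WT and fell in Zn4, with the log2 difference in response in brackets. Ifih1 (2.98), Mfhas1 (1.28) and Serp1 (0.89) fell in WT and rose in Zn4.

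Y-linked transcripts appeared in 3 libraries labelled female. Their summed level was 38.9 RPKM in WT 12 h replicate 1, 43.4 in Zn4 12 h replicate 1 and 21.0 in Zn4 12 h replicate 2. With 2 libraries per group, no group was large enough for a check of single libraries that stand apart.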

How the results depend on the processing

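The 651 called genes had the sign of the main result in each alternative that tested them, except the voom fit, where 631 did; the filter at 5 RPKM tested 525 of them. With the Y-linked level as a covariate 318 genes were called, 116 higher and 202 lower, with 180 response-only, 55 erased and 892 differing at 12 h. Without both 12 h libraries under 1 RPKM of Xist the counts were 141, 53, 88, 87, 21 and 446 in that order, and 456 genes differed at rest; fewer samples entered this fit. The voom fit gave 96 higher and 72 erased genes, and a fit to the 8 libraries alone gave 86 erased genes. At an adjusted p of 0.1, 625 genes were response-only and 218 erased, because more genes pass. Leaving out each library gave 236 to 561 called genes, 86 to 191 higher, 150 to 370 lower, 142 to 313 response-only and 42 to 120 erased, with 437 to 613 differing at rest and 743 to 1834 at 12 h. By voom the difference was 1.26 for Tmem176a, 0.0 for Pdlim4, -0.63 for Myo1e, 0.42 for Oas1a and 0.14 for Prdm1, opposite to the main fit or at 0; the cause was not tested beyond the pseudocount's compression under 1 RPKM. Of 124 named genes, calls were lost in 69 without the low-Xist libraries, in 36 with the covariate and in 29 by voom.

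The labels do not say that replicate numbers pair the groups, and 2 replicates cannot settle it. Deviations of same-numbered libraries from their group means correlated at 0.61 between the genotypes at 0 h, 0.19 at 12 h, and -0.04 to 0.11 across times, so same-numbered libraries deviated together within a time, more so at 0 h. With the replicate number as a block 703 genes were called, 604 of them among the 651. A replicate block within each time, added after the data were seen, called 1319 genes, 429 higher and 890 lower, with 766 response-only and 252 erased, and 1343 differing at rest and 2644 at 12 h. Depth limits genes with few reads, and 2 libraries per group limit every test.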
